A study of Mus musculus with 5 samples.

Results

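The genes described here make cholesterol and fatty acids, or control that synthesis. They are 34 named genes in 3 groups: 19 of the sterol branch, 5 regulators and 10 of the fatty acid branch. Each was found through the probe sets annotated to its symbol, and the probe set with the highest mean of log2(intensity + 16) stood for the gene. A probe set is a group of short oligonucleotides on the array that together report 1 transcript. A probe set was found for 33 of the 34 genes, out of 18193 genes with a probe set in all; Acat2, of the sterol branch, was not analysed here. All 33 lay above the median of all intensities, 25.1, on every array, with a lowest value of 62.1 and a highest of 5406.9.

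RNA came from NT2.5 cells, a mouse mammary tumour line derived from mice that carry the neu oncogene as a mammary transgene, and from sub-lines of it. The labels give the parental cells a preference for metastasis to bone, liver and lung, and each sub-line a preference for bone or for liver alone. The 5 arrays each held 1 sample: passage 3 and passage 6 of the bone sub-line, passage 1 and passage 3 of the liver sub-line, and parental cells. The series' design text calls bone passage 3 and liver passage 1 early, and bone passage 6 and liver passage 3 final. The sources used here give neither how the passages were made nor whether a sub-line is a single clone. In the tests the passages of 1 sub-line served as its replicates, and the single parental sample was taken to vary by as much. Each p-value below therefore rests only on the spread between the early and the final passage of each sub-line. The spread was pooled over the bone and liver sub-lines and drawn towards a value shared by all genes. That spread may be technical. A large difference between the liver passages thus also widens the error of bone against parental.

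Cells build cholesterol from acetyl-CoA through mevalonate, isoprenoid units, squalene and lanosterol. When membrane sterol is low, SCAP carries the transcription factors SREBP1 and SREBP2 (encoded by Srebf1 and Srebf2) from the endoplasmic reticulum to the Golgi, where they are cut and released to the nucleus. SREBP2 mainly drives sterol genes and SREBP1c mainly drives fatty acid genes, while the INSIG proteins hold SCAP back when sterol is plentiful. Insig1 is itself an SREBP target, so its RNA is widely read as a gauge of the pathway. NF-Y, which binds the CCAAT box, acts together with SREBP at many of these promoters.

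The RefSeq promoter table (assembly GRCm38.p6) held a window for 26 of the members. Shown first are the 250 bases before the annotated start of 4 genes with a large difference between the liver passages, Idi1, Insig1, Nsdhl and Hmgcs1, each read 5′ to 3′ on the gene's own strand. Capitals mark a CCAAT box on either strand (CCAAT, or ATTGG on the strand shown) and the SREBP motif TCACNCCAC on either strand. The 2 motifs did not overlap in these windows. Idi1 lies at chr13:8885356-8885605, Insig1 at chr5:28071162-28071411, Nsdhl at chrX:72918271-72918520 and Hmgcs1 at chr13:119690101-119690350, all on the plus strand.
Idi1: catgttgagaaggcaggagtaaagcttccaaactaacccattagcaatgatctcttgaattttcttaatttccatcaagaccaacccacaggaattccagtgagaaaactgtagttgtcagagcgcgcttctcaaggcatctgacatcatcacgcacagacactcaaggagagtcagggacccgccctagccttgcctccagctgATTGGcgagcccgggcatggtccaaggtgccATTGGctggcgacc
Insig1: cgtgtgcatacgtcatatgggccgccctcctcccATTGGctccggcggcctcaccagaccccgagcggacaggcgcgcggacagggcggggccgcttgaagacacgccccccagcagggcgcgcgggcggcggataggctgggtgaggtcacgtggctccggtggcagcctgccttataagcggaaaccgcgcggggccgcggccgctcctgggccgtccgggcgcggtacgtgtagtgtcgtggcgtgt
Nsdhl: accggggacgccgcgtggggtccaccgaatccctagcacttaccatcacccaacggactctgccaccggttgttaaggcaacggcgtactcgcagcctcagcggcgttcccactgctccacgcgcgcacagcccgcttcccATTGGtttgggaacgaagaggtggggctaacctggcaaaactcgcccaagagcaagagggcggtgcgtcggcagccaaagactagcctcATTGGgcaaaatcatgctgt
Hmgcs1: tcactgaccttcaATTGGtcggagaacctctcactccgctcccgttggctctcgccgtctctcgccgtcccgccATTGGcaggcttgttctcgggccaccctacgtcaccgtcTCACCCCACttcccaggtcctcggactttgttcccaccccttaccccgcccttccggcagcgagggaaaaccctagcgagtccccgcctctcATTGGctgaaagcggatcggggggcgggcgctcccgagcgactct
Fads2, whose RNA also differed between the liver passages, is shown for contrast. Its window, chr19:10101504-10101753 on the minus strand, held neither motif.
Fads2: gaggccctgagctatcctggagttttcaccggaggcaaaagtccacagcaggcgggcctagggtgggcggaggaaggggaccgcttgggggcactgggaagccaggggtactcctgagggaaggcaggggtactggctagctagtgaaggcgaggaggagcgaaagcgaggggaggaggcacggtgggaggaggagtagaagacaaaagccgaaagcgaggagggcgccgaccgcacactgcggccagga

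A CCAAT box lay in the window of 21 of the 26 members, against 37.5% of 27025 genes in the table and 40.1% of the 10180 tested genes with a window (33.8% of all 32851 windows). By group, 14 of 14 sterol members, 4 of 5 regulators and 3 of 7 fatty acid members had one. Acaca was counted among those without a box, but its window ends like the end of an intron and may not be a promoter. Hmgcs1 had 3 boxes, Idi1 and Nsdhl 2 each and Insig1 1. The motif TCACNCCAC was found in 1 member, Hmgcs1, against 1.22% of genes in the table, 1.28% of the tested genes with a window and 1.05% of windows. A match of letters is not a bound site, and a window without a match says nothing of the factor.

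Between the liver passages, most of the sterol branch was at a higher level on the passage 3 array than on the passage 1 array. This held for 17 of 18 sterol members, 3 of 5 regulators and 9 of 10 fatty acid members, and 52.3% of all 12609 genes tested were higher. The median log2 difference was 0.53 for the sterol members, 0.17 for the regulators and 0.49 for the fatty acid members, against 0.02 for all genes tested. At least 2-fold higher were 5 members (Idi1, Fdft1, Fdps, Insig1 and Fads2), beside 1.68% of all genes, and 0 members were 2-fold lower. Each side is 1 array, so these differences have no replicate check and no test. All differences are on the log2(intensity + 16) scale, which understates the change of dim genes, and intensities of different genes are not comparable with each other.

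**Figure D1:**
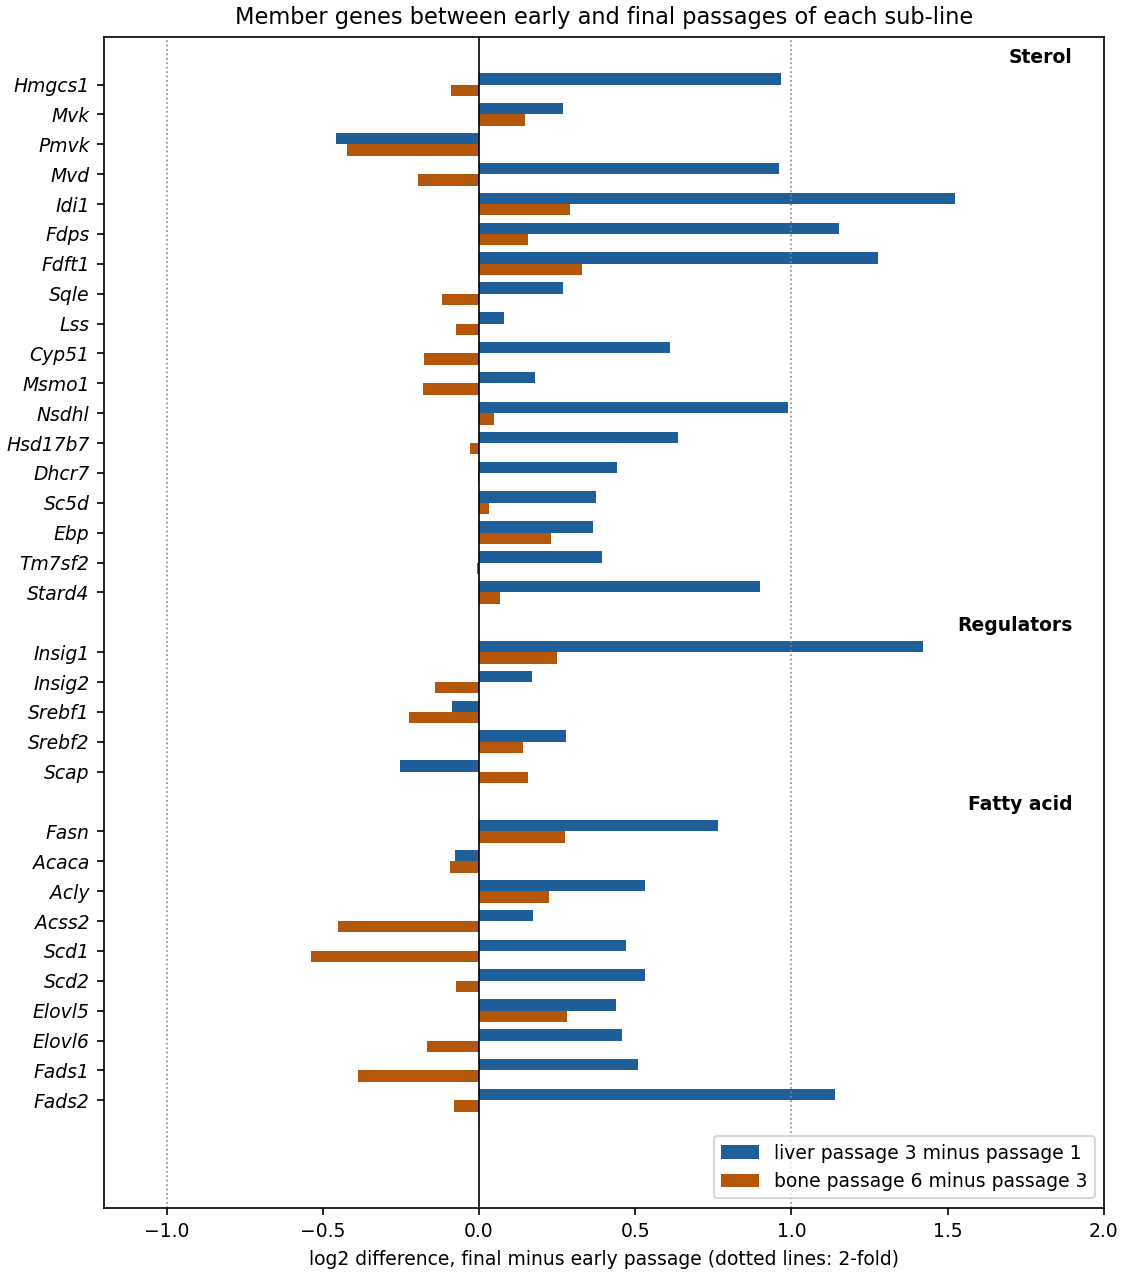
Log2 difference of each member between the final and the early passage of each sub-line, on the log2(intensity + 16) scale, with 1 array on each side. The blue bars (liver passage 3 minus passage 1) point right for 29 of 33 members and pass the 2-fold line for 5, whereas the orange bars (bone passage 6 minus passage 3) lie between -0.54 and 0.33.

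The upper mevalonate pathway turns acetyl-CoA into isopentenyl diphosphate. Mvd, the decarboxylase that makes isopentenyl diphosphate, had an intensity of 115.8 in parental cells, 192.6 and 166.3 in bone passages 3 and 6, and 83.1 and 176.6 in liver passages 1 and 3. Liver passage 1 was the lowest of the 5 arrays, the parental array was next, and liver passage 3 lay between the bone passages. The liver passages differed by 0.96 on the log2 scale (1.94-fold). Hmgcs1, which makes HMG-CoA, differed by a similar 0.96 (1.95-fold), and its 3 other probe sets gave 0.93 to 1.10. The kinase Mvk differed by 0.27. The next kinase, Pmvk, was the only sterol member lower in liver passage 3, by -0.46 on the log2 scale.

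The member with the largest difference between the liver passages was at the isoprenoid steps. Idi1, the isomerase that gives dimethylallyl diphosphate, had an intensity of 332.6 in parental cells, 439.6 and 541.1 in the bone passages, and 126.8 and 394.9 in the liver passages. Liver passage 1 stood well below the other 4 arrays, and liver passage 3 lay between the parental and the bone values. The difference between the liver passages was 1.52 (2.88-fold), and a second probe set read 1.49. Fdps, which joins isoprenoid units into farnesyl diphosphate, had 1262.1 in parental cells, 1579.5 and 1764.2 in the bone passages, and 815.0 and 1832.3 in the liver passages. Here liver passage 1 was again the lowest array and liver passage 3 the highest, 1.15 apart on the log2 scale (2.22-fold).

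Farnesyl diphosphate enters the sterol branch proper through squalene synthase, the product of Fdft1. Its intensity was 558.2 in parental cells, 631.2 and 797.8 in the bone passages, and 287.8 and 719.6 in the liver passages. Liver passage 1 was lowest, and liver passage 3 lay within the bone range, 1.28 above passage 1 (2.42-fold). The other Fdft1 probe sets above the floor gave 1.32, 0.04 and -0.54, so the gene's probe sets did not all have 1 sign. Those at 0.04 and -0.54 were dim, with intensities of 15.5 to 36.4 and 18.5 to 42.4. In liver passage 3 they read 19.8 and 18.5, below the floor of 25.1. The next enzymes, the epoxidase Sqle and the lanosterol synthase Lss, differed little between the liver passages (0.27 and 0.08). Other, dimmer Lss probe sets gave 0.57 and 0.18.

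Of the enzymes that turn lanosterol into cholesterol, Nsdhl (a sterol 4-alpha-carboxylate dehydrogenase) lay just under the 2-fold line between the liver passages at 0.99, and the ketoreductase Hsd17b7 and the demethylase Cyp51 stood at 0.64 and 0.61. The methyl oxidase Msmo1 (0.18), the isomerase Ebp (0.36), the desaturase Sc5d (0.38), the reductase Tm7sf2 (0.39) and the reductase Dhcr7 (0.44) differed by less. Stard4, a carrier that moves cholesterol between membranes, had an intensity of 254.2 in parental cells, 243.9 and 256.1 in the bone passages, and 120.0 and 237.9 in the liver passages. Its parental, bone and liver passage 3 values lay close together, and liver passage 1 was below them all. The liver passages differed by 0.90 (1.87-fold), and 2 further probe sets gave 0.84 and 0.67.

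Among the regulators, the sterol sensor Insig1 stood apart from the rest. It had an intensity of 327.1 in parental cells, 394.8 and 472.9 in the bone passages, and 233.5 and 651.7 in the liver passages. Liver passage 1 was the lowest of the 5 arrays and liver passage 3 the highest, 1.42 apart (2.68-fold). The RNAs of the transcription factors and their escort differed less between the same arrays: Srebf2 by 0.28, Insig2 by 0.17, Srebf1 by -0.09 and Scap by -0.25. A second Srebf2 probe set gave -0.01.

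In the fatty acid branch, Fads2, the delta-6 desaturase that starts the synthesis of long polyunsaturated fatty acids, had the largest liver difference. Its intensity was 574.0 in parental cells, 678.0 and 640.4 in the bone passages, and 341.0 and 769.7 in the liver passages. Liver passage 1 was lowest and liver passage 3 highest, 1.14 apart (2.20-fold), and the other probe sets gave 0.88 and 0.37. Fasn, the fatty acid synthase, differed by 0.76. Acly, which supplies cytosolic acetyl-CoA from citrate, differed by 0.53, Scd2 by 0.53, Fads1 by 0.51 and Scd1 by 0.47. The elongases Elovl6 and Elovl5 differed by 0.46 and 0.44 and the acetyl-CoA synthetase Acss2 by 0.17. Acaca, whose product makes malonyl-CoA, was the only fatty acid member not higher in liver passage 3, at -0.08.

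Set against all 5 arrays, liver passage 1 was the lowest array for 11 of 18 sterol members, 2 of 5 regulators and 5 of 10 fatty acid members. That is 18 of 33 members, beside 23.7% of all genes tested. Liver passage 3 was the highest array for 8 sterol members, 2 regulators and 5 fatty acid members, 15 of 33 in all, beside 19.8% of all genes. Against the parental array, the sterol median was -0.15 in liver passage 1, where 11 of 18 sterol members were lower and 7 higher, and 0.35 in liver passage 3, where 15 were higher and 3 lower. The fatty acid medians were -0.28 and 0.24. The medians of the liver passages thus lay on opposite sides of the parental cells in both branches, with members on both sides in each.

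**Figure D2:**
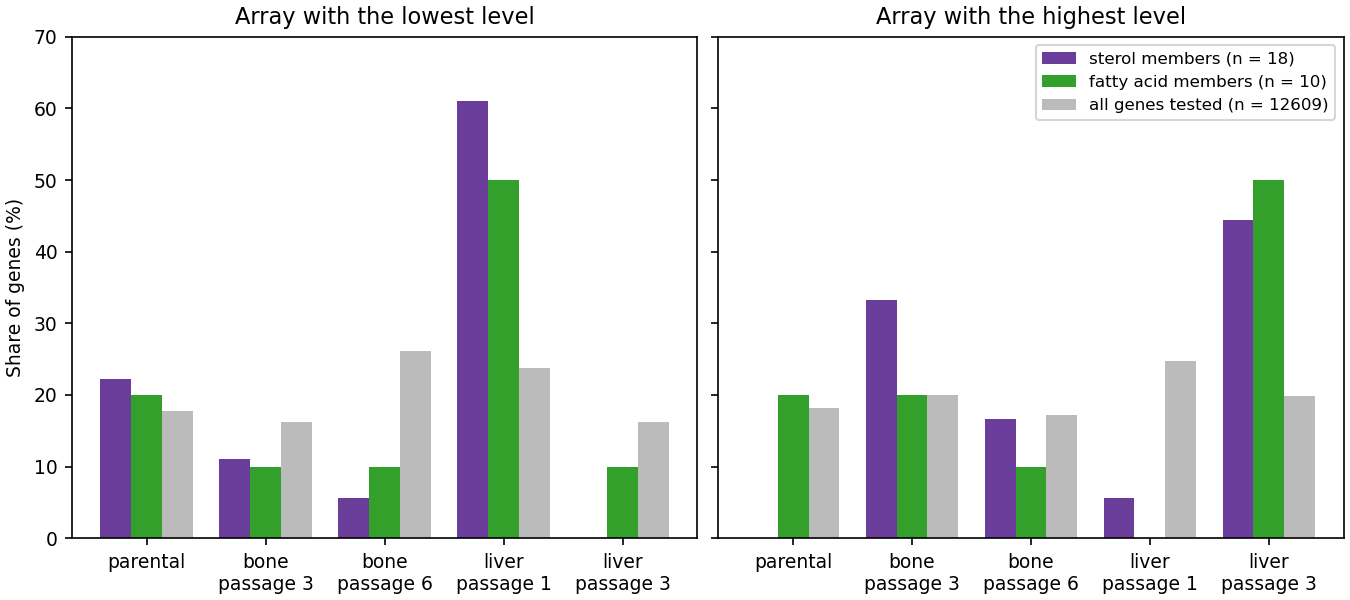
Share of genes, in percent, for which each of the 5 arrays held the lowest (left) or the highest (right) level, for the 18 sterol members, the 10 fatty acid members and all 12609 genes tested. Liver passage 1 was lowest for 61.1% of the sterol members and 23.7% of all genes, and liver passage 3 was highest for 44.4% and 19.8%.

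Markers of macrophages were also uneven between the liver arrays. The summed intensity of the 10 macrophage markers was 757.0 in liver passage 1 and 527.1 in liver passage 3, against 219.4 in parental cells and 312.2 and 280.7 in the bone passages, and 8 of the 10 were above the floor of 25.1 in liver passage 1. Of the 8 markers above the floor on at least 1 array, all were above parental in liver passage 1. Between the liver passages, 7 of the 8 were lower in passage 3, and 3 of these by at least 2-fold. The median log2 difference was -0.76. On the other arrays at most 4 of the 10 were above the floor. Single markers varied in how far they differed. C1qa and C1qb, complement genes chosen after their values were seen, were at 56.1 and 80.4 in liver passage 1, and between 0.9 and 14.0 on the other arrays, which is below that floor. Csf1r, the receptor of the macrophage growth factor, was at 67.6 in parental cells, 89.3 and 107.3 in the bone passages, and higher in liver passage 3 (220.0) than in liver passage 1 (168.7). Cd68 was at 52.1 in parental cells, 103.2 and 74.8 in the bone passages, and 173.1 and 172.0 in the liver passages, which were level with each other. The Fc receptor gene Fcgr3 was at 2.4, at 1.3 and 1.1, and at 30.4 and 19.7 in the same order, so that it passed the floor in liver passage 1 alone. The part of such cells in the sterol difference was not tested. Markers of mammary epithelium summed to 25819.0 in liver passage 1 and 26189.6 in liver passage 3 (25819.0 to 30630.7 over all arrays), with 10 of 11 above the floor. Between the liver passages these 10 differed by -0.32 to 0.97 on the log2 scale, with a median of 0.06 (6 higher, 4 lower). In liver passage 1, 1 of them was at least 2-fold below parental. The hepatocyte sum was 85.7 to 166.2, with at most 1 marker above the floor on any array and Alb between 2.4 and 15.8. The adipocyte sum was 78.8 to 117.7, with Adipoq at 2.3 to 5.5. In bulk RNA, fewer cells of a type and less RNA per cell cannot be told apart.

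The bone passages showed no such difference. Between bone passage 6 and passage 3, 0 of 33 members were 2-fold apart, beside 2.43% of all genes, and the member differences ran from -0.54 to 0.33. The medians were -0.01 for the sterol members, 0.14 for the regulators and -0.09 for the fatty acid members, against -0.04 for all genes. Pmvk was lower in bone passage 6 by -0.42, close to its value between the liver passages. With 1 array a side, the difference between the bone and the liver result was not tested.

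At passage 3, the only passage number measured in both sub-lines, the sterol medians of bone and liver were close. Bone minus liver was 0.01 for the sterol members (9 of 18 higher), -0.22 for the regulators and -0.04 for the fatty acid members, against -0.0033 for all genes tested. The 1 member at least 2-fold apart was Scd1, which was 2.70-fold higher in bone, beside 4.59% of all genes 2-fold apart in either direction and 2.24% higher in bone. The sterol members still differed among themselves. Tm7sf2 was higher in bone passage 3 by 0.69, while Sc5d (-0.89), Ebp (-0.80) and Nsdhl (-0.72), and the regulator Insig1 (-0.70), were higher in liver passage 3. Passage 3 is early for bone and final for liver, so passage number and stage cannot both be matched.

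With the passages as replicates, limma called 0 of the 33 members at an adjusted p under 0.05 in any of the 3 comparisons of lines. The shares of all genes called were 0.135% for bone against parental, 0.0159% for liver against parental and 0.19% for bone against liver. At an unadjusted p under 0.05, 2, 1 and 3 members passed, beside 8.17%, 7.49% and 14.1% of all genes. The smallest limma adjusted p of a member was 0.132, 0.589 and 0.128 in the same order. The members that passed unadjusted were Scd1, Fads1, Acaca, Tm7sf2 and Sc5d. The error is shared between the sub-lines. For Idi1, bone against parental had an SE of 0.58. Its standard deviation was 0.21 between the bone passages and 1.08 between the liver passages.

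**Figure D3:**
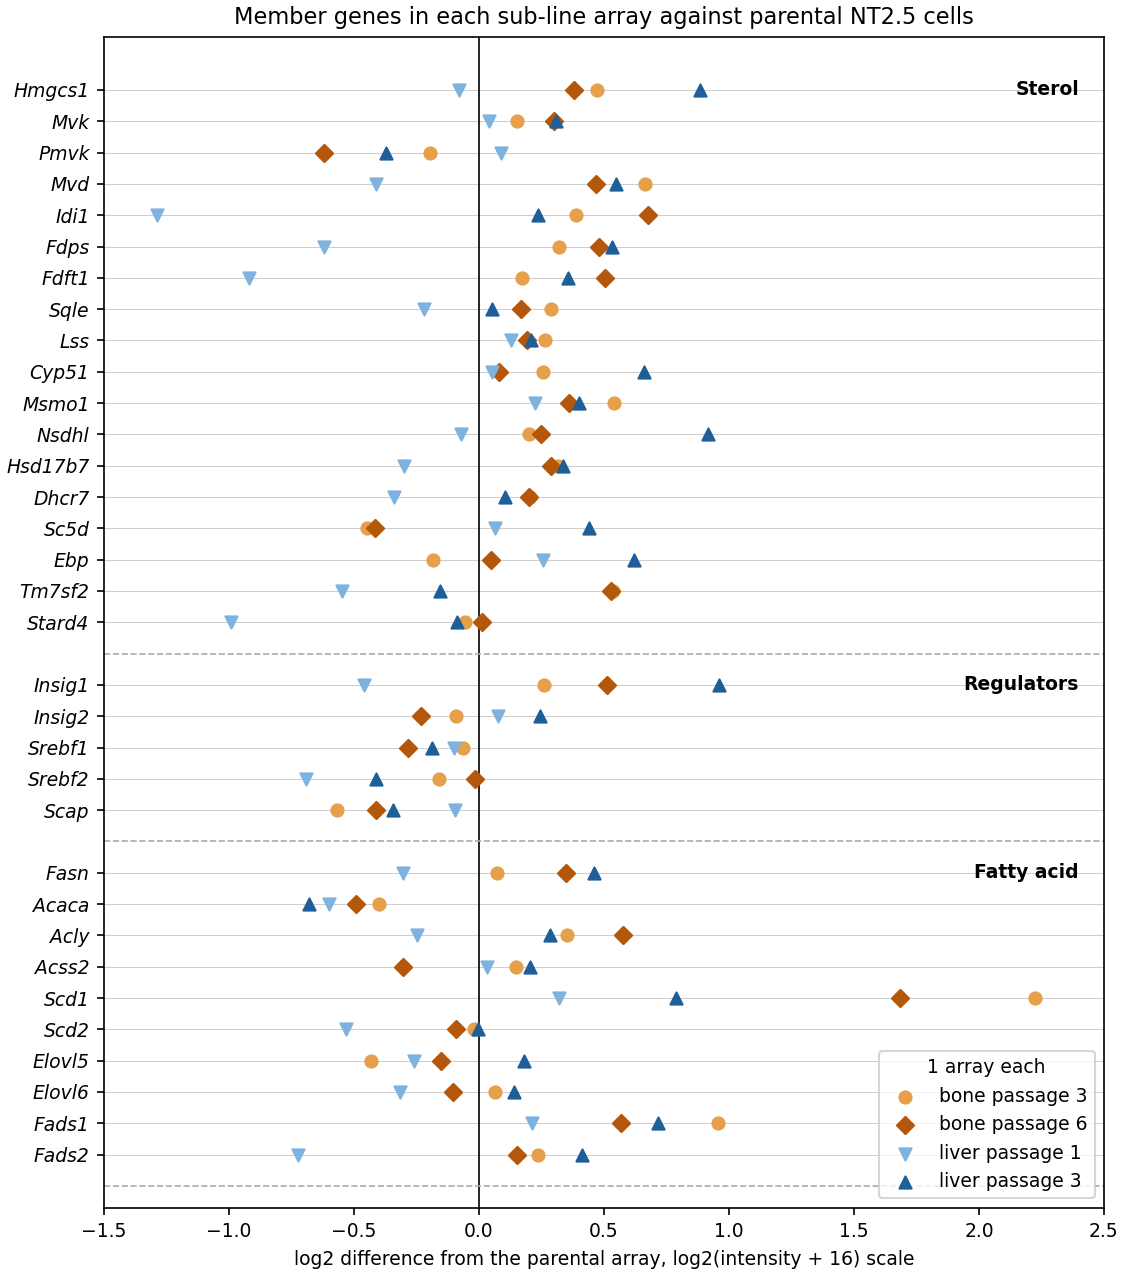
Log2 difference of each member from the parental array, on the log2(intensity + 16) scale, with 1 point for each sub-line array and members grouped by branch. Liver passage 1 lies to the left of the other points for most sterol members, at -1.29 for Idi1, whereas Scd1 in the bone passages lies farthest right, at 2.22 and 1.69.

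Scd1, a stearoyl-CoA desaturase that makes monounsaturated fatty acids, had the widest range of all members. Its intensity was 500.8 in parental cells, 2398.2 and 1646.6 in bone passages 3 and 6, and 628.4 and 876.8 in liver passages 1 and 3. Both bone values lay above both liver values, and the parental value was the lowest. The bone sub-line was 1.95 ± 0.33 (SE) above parental on the log2 scale (3.88-fold; limma adjusted p = 0.132), and over the alternative settings this adjusted p ran from 0.0645 to 0.385. Against liver it was 1.40 ± 0.27 higher (2.64-fold; limma adjusted p = 0.128, 0.0651 to 0.364 over the alternatives). A second Scd1 probe set, at 154.6 in parental cells, 706.9 and 375.0 in the bone passages and 207.2 and 237.7 in the liver passages, had the same order of arrays.

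Scd1 is 1 of a family of related desaturases, so cross-hybridisation between them was a possibility, and it was not tested. Scd2 had a narrow range of intensity, 3730.6 to 5406.9, with liver passage 1 lowest and the parental array highest, and a difference of -0.06 ± 0.28 between bone and parental. Scd3 was at 55.7 in parental cells, 131.9 and 79.2 in the bone passages, and 65.7 and 70.9 in the liver passages, a bone difference of 0.73 ± 0.31 (limma adjusted p = 0.618). Scd1 and Scd3 were thus highest in the same array, bone passage 3, and Scd2 was not.

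Fads1, the delta-5 desaturase of the same polyunsaturated pathway as Fads2, had an intensity of 540.0 in parental cells, 1062.1 and 807.4 in the bone passages, and 627.3 and 898.5 in the liver passages. The parental array was lowest, and the bone and liver ranges overlapped. Bone was 0.76 ± 0.31 above parental (1.69-fold; limma adjusted p = 0.608, 0.511 to 0.928 over the alternatives). A second, dimmer Fads1 probe set, at 23.1 to 41.5, gave -0.07 for bone against parental.

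**Figure D4:**
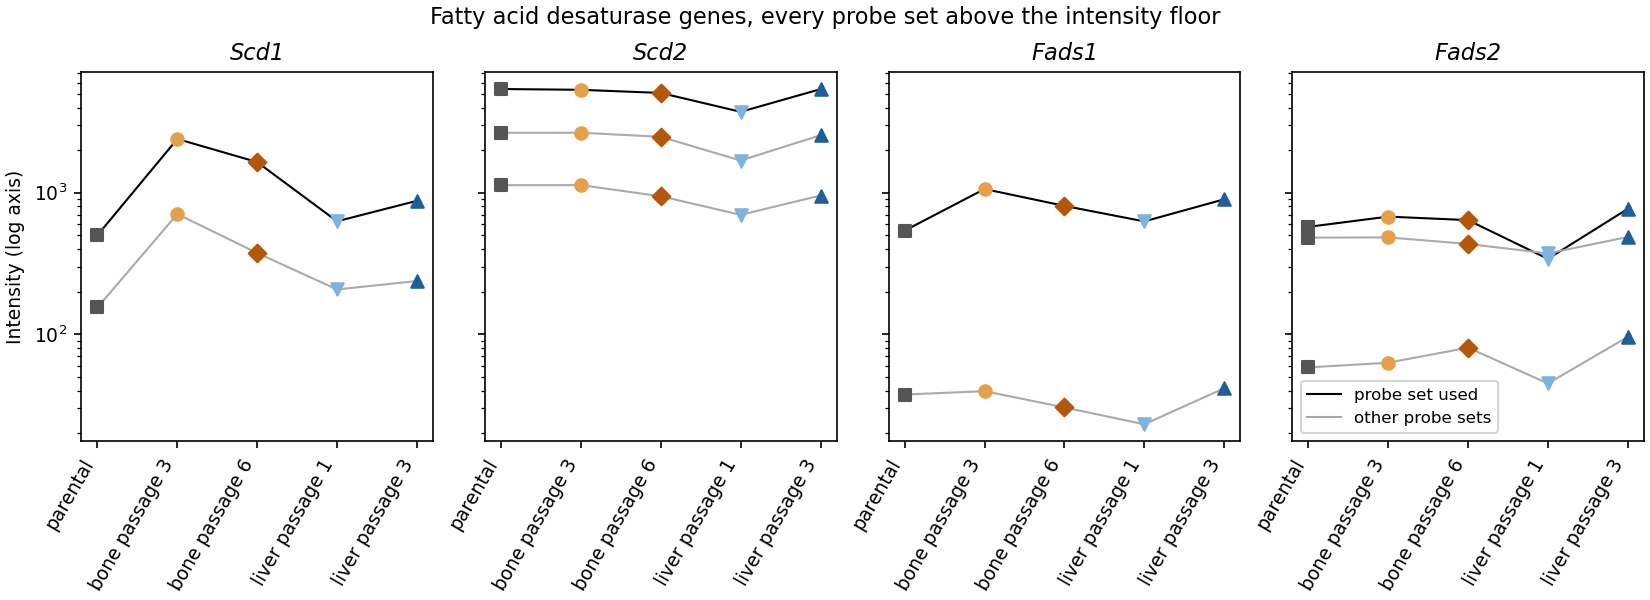
Intensity, on a log axis, of every probe set above the floor for Scd1, Scd2, Fads1 and Fads2 on the 5 arrays, 1 point an array; lines only join the values of 1 probe set (black, the probe set used). Both Scd1 probe sets are highest in the bone passages, at 2398.2 and 1646.6 for the one used, while Scd2 and Fads2 are lowest in liver passage 1, at 3730.6 and 341.0.

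Acaca, acetyl-CoA carboxylase, was lower than parental on all 4 sub-line arrays, with an intensity of 1013.1 in parental cells, 764.4 and 715.8 in the bone passages, and 662.2 and 626.3 in the liver passages. In this probe set the bone and liver values did not overlap, with liver the lower. Liver was -0.64 ± 0.22 relative to parental (limma adjusted p = 0.589, 0.513 to 0.710 over the alternatives) and bone was -0.45 ± 0.22 (limma adjusted p = 0.679). A second probe set was also highest in parental cells, at 214.8, against 153.2 and 117.1 in bone and 122.7 and 102.6 in liver. There the bone and liver values overlapped. Fasn, which uses the malonyl-CoA that this enzyme makes, did not share the order: bone was 0.21 ± 0.35 and liver 0.08 ± 0.35 relative to parental.

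Late sterol enzymes lay on both sides between bone and liver. Tm7sf2, a sterol C14 reductase, had an intensity of 98.2 in parental cells, 149.5 and 148.7 in the bone passages, and 62.1 and 86.5 in the liver passages. Both bone values lay above parental and both liver values below it. Bone was 0.88 ± 0.21 above liver (1.85-fold; limma adjusted p = 0.171, 0.116 to 0.397 over the alternatives). Sc5d, the C5 desaturase of a later step, had 439.6 in parental cells, 318.1 and 325.5 in the bone passages, and 460.0 and 601.7 in the liver passages. Its order was the reverse, with bone at -0.68 ± 0.20 relative to liver (limma adjusted p = 0.235, 0.182 to 0.502 over the alternatives). The other Sc5d probe sets gave -0.67 and -0.96.

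Taken by branch, both bone arrays lay above the parental array for 14 of 18 sterol members, 1 of 5 regulators and 5 of 10 fatty acid members. That is 20 of 33, beside 33.5% of all genes. The medians of bone minus parental were 0.23, -0.16 and 0.09, against -0.02 for all genes tested. Both comparisons with parental cells rest on the same single parental array. The medians of liver minus parental were 0.04, -0.14 and -0.01, against 0.01 for all genes; without liver passage 1 the sterol median was 0.35 and the fatty acid median 0.24, and without liver passage 3 they were -0.15 and -0.28.

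Both bone arrays lay above both liver arrays for 9 of 33 members (5 sterol, 1 regulator and 3 fatty acid), beside 21.2% of all genes. They lay below both for 4 of 33 (2 sterol and 2 regulators), beside 25.9%. The medians of bone minus liver were 0.21 for the sterol members, -0.03 for the regulators and 0.20 for the fatty acid members, against -0.02 for all genes. The direction in both branches rested on liver passage 1: without that array the sterol median was -0.03 and the fatty acid median -0.11, and without liver passage 3 they were 0.48 and 0.50.

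Some members kept a narrow range. Across all 5 arrays, 11 of 33 members lay within a 1.5-fold range, beside 50.0% of all genes tested: Mvk, Sqle, Lss, Msmo1, Dhcr7, Insig2, Srebf1, Scap, Acss2, Scd2 and Elovl6. At the other end, 9 members were at least 2-fold apart between some pair of arrays, beside 17.2% of all genes (Mvd, Idi1, Fdps, Fdft1, Tm7sf2, Stard4, Insig1, Scd1 and Fads2). Lss had the narrowest range, 1.20-fold, and Scd1 the widest, 4.67-fold. These ranges are of the probe set used, and another, dimmer Lss probe set ran from 52.1 to 109.1. Srebf1 and Srebf2, which encode the transcription factors, spanned 1.22-fold and 1.62-fold.

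Of the 33 members, 21 had more than 1 probe set above the floor. For the liver passages, all probe sets of a gene had 1 sign in 19 of the 21, and in 15 and 14 for bone against parental and bone against liver.

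Other genes of the pathway gave medians between the liver passages that were smaller than those of the sterol and fatty acid members, and limma called 0 of them in any comparison of lines at an adjusted p under 0.05. At an unadjusted p under 0.05, the most that passed in 1 list were 5 of 16 other genes of fatty acid synthesis and elongation for bone against liver, beside 14.1% of all genes, and 4 of the same 16 for bone against parental, beside 8.17%. The median of liver passage 3 minus passage 1 was -0.01 for 10 other sterol and isoprenoid enzymes (4 higher), -0.15 for 7 genes of SREBP processing and sterol sensing (2 higher) and 0.27 for 7 of sterol uptake, transport and storage (5 higher). It was -0.22 for 5 genes of LXR, the nuclear receptor that answers to oxysterols, and its targets (2 higher). In fatty acid metabolism it was 0.17 for 16 other genes of synthesis and elongation (13 higher), 0.20 for 7 of fatty acid activation (6 higher) and 0.31 for 12 of fatty acid oxidation (9 higher). The 5 measured genes that supply NADPH, the reductant both branches consume, were all higher in liver passage 3, with a median of 0.22. Liver passage 1 was the lowest array for 7 of 12 genes of fatty acid oxidation and 4 of 5 that supply NADPH. It was lowest for 3 of 7 each of sterol uptake and fatty acid activation, and for 5 of 16 other synthesis and elongation genes. The remaining lists had 3 of 10 other sterol and isoprenoid enzymes, 1 of 7 of SREBP processing and 1 of 5 of LXR, beside 23.7% of all genes.

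Outside the members, 3 genes of these lists were at least 2-fold from parental in both passages of a sub-line, or 2-fold apart between all bone and liver arrays. Cpt1a, which admits fatty acids to mitochondria for oxidation, had an intensity of 322.7 in parental cells, 216.4 and 143.8 in the bone passages, and 116.5 and 112.2 in the liver passages. All 4 sub-line values lay below parental, with liver at -1.38 ± 0.28 (limma adjusted p = 0.292). Hacd1, a dehydratase of fatty acid elongation, had 89.7 in parental cells, 46.1 and 30.5 in the bone passages, and 143.2 and 149.6 in the liver passages. Bone was -1.60 ± 0.21 relative to liver, with the parental array between them (limma adjusted p = 0.0738). Fads6, named as a fatty acid desaturase, had 25.1 in parental cells, 159.5 and 84.5 in the bone passages, and 166.4 and 94.9 in the liver passages, so that each early passage was above its final one and all were above parental. Its bone and liver differences from parental were 1.69 ± 0.43 and 1.79 ± 0.43 (limma adjusted p = 0.319 and 0.390).

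The deposited values have 1 common trimmed mean on all arrays, so their overall level cannot differ by much. The median intensity was 21.9 in bone passage 6 and 24.6 to 26.4 on the other 4 arrays, and the 5'/3' ratio was 0.842 to 0.927 for Actb and 1.24 to 1.33 for Gapdh. With 5 arrays in all, that number limits how precise any value can be.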

How the data were processed

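Expression was measured on Affymetrix Mouse Genome 430 2.0 arrays, 1 colour and 1 array a sample. The deposited values are linear intensities, 1 for each probe set and array; the submitters' processing notes name RMA, with the version not given in the sources used here. RMA gives log2 values and these are not, and the mean trimmed by 2% at each end was 150 on all 5 arrays; any further steps are not given in the sources used here. Values were converted to log2(intensity + 16), a pseudocount of 16, with no further normalization. Of 45101 probe sets, the platform annotation gave 34958 a single gene and 932 several, and 9211 were unlisted; the latter kinds and 64 control probe sets were left out. Symbols of 34754 matched the RefSeq table (GRCm38.p6), which changed 0 of them. Probe sets whose highest value reached 25.1 were kept, leaving 12609 of 18193 genes. These were fitted with limma 3.58.1 (lmFit, eBayes) in R 4.3.3, with the 3 lines as groups, 2 residual and 4.2 prior degrees of freedom, and Benjamini-Hochberg adjustment over all 12609 genes. As a check of the code, the fit was run on simulated data in 10 runs with 200 genes changed. The simulated arrays varied independently, which passages of 1 lineage may not. The check therefore does not show how often a change of the members' size would be called. Values on every array are given for members with an unadjusted p under 0.05 or at least 2-fold apart between any arrays; the others are given as differences or ranges. Genes of the other lists, macrophage markers included, were named where 2-fold from parental in both passages, or between all bone and liver arrays. Alternatives were no filter, median centring, quantile normalization, a pseudocount of 1, the mean of all probe sets, a variance trend, fits without the line not compared, stage as a block, each sub-line array left out, and a 3-fold threshold. Leaving out probe sets that can match several transcripts was chosen after seeing the data. Members and lists were chosen with earlier results of these data known.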

Additional observations from a re-analysis of the deposited data

Results flagged for a closer look

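For 3 of 33 members both bone arrays lay on one side of the parental array and both liver arrays on the other. That is a smaller share than the 13.6% of all 12609 genes tested, so the pattern was no commoner among the members. Tm7sf2 was above parental in bone and below it in liver, with bone 0.88 above liver on the log2 scale (limma adjusted p = 0.171). Sc5d was below parental in bone and above it in liver, with bone at -0.68 relative to liver (limma adjusted p = 0.235). Insig2, a partner of Insig1 in holding back SCAP, had an intensity of 507.6 in parental cells, 475.7 and 429.7 in the bone passages, and 535.7 and 604.2 in the liver passages, with bone at -0.32 relative to liver (limma adjusted p = 0.482). The pattern did not hold in every probe set: liver passage 1 was below parental in a second Sc5d probe set (79.2 against 80.7) and in another Insig2 probe set (337.4 against 369.8). None of these 3 differences between the sub-lines passed an adjusted p of 0.05; the unadjusted limma p was 0.00487 for Tm7sf2, 0.0149 for Sc5d and 0.132 for Insig2.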

How the results depend on the processing

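The count of members with a limma adjusted p under 0.05 was 0 in all 111 alternatives run, and 47 of 54 counts of 2-fold members stayed within 1.5 times. Of 156 medians, 149 were counted as near their reported value, with a limit of 0.1 on the log2 scale for pairs of arrays. That count is no measure of stability. With 1 liver array left out, medians of both branches that involve the liver sub-line shifted widely, and some changed sign. The sterol median of bone minus parental was 0.23, and became 0.28 with median centring, 0.25 with quantile normalization, 0.24 with a pseudocount of 1, and 0.2274 to 0.2676 with 1 array left out (the highest without bone passage 3, 0.2588 without bone passage 6). The fatty acid median of bone minus liver, 0.20, ran from -0.1062 without liver passage 1 to 0.4976 without liver passage 3. The regulator median of bone passage 6 minus passage 3, 0.14, was -0.042 with the mean of all probe sets. For liver passage 3 minus passage 1, 5 sterol members were 2-fold apart, in place of 3, with quantile normalization and with a pseudocount of 1; at a 3-fold threshold 0 were, as were 0 regulators (1 at 2-fold) and 0 fatty acid members (1 at 2-fold, and 0 with the mean of all probe sets). The fatty acid member 2-fold apart between bone and liver at passage 3, Scd1, did not reach 3-fold, which left 0. The labels give no replicate numbers beyond the passages. With the stage, early or final, as a replicate block, the sterol median of bone minus liver stayed at 0.2106, 0 members were called, and the limma adjusted p of Scd1 was 0.0651 (0.0651 to 0.364 over the alternatives).

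Each passage has 1 array, and so have the parental cells. The contrasts between passages carry no error, and a single array, liver passage 1, sets the direction of several medians. Probe sets of a gene can disagree. For Fdft1 those that departed from the probe set used were dim, but this did not hold for every gene. The second Srebf2 probe set, at 231.4 to 304.8, gave -0.10 for bone minus liver, where the one used gave 0.46. The pathway's regulation acts largely on protein processing, which RNA arrays do not measure.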

Other observations

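Idh1, an NADP-dependent isocitrate dehydrogenase that supplies NADPH, was chosen after its values were seen. Its intensity was 323.7 in parental cells, 478.3 and 566.1 in the bone passages, and 136.9 and 517.3 in the liver passages. As for Idi1, liver passage 1 was the lowest array, bone passage 6 the highest, and liver passage 3 lay above the parental array, 1.80 above passage 1 on the log2 scale (3.49-fold, 1 array a side). Abca1, an LXR target that exports cholesterol, was likewise chosen after its values were seen. It was at 56.3 in parental cells, 150.3 and 52.1 in the bone passages, and 139.7 and 117.4 in the liver passages, so it was highest in the early passage of each sub-line and its bone values differed by -1.29 (passage 6 minus passage 3). Neither gene passed in any comparison of lines; the limma adjusted p was 0.500 or higher for both.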
